A study of Drosophila melanogaster with 10 samples.

Results

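The genes described here take cells from G2 into mitosis and through cell division. They were picked by name from the deposited expression table, as every row whose symbol is 1 of 32 listed symbols or begins with Bub, Klp or Cenp. The rule found 38 of the 7987 genes in the table. By their known roles these are 4 genes for mitotic cyclins and Cdk1, 2 for Cdc25 phosphatases, 4 for mitotic kinases, 5 for the spindle checkpoint, 3 for the onset of anaphase, 2 for the centromere, 9 for kinesins, 4 for spindle poles and centrosomes, and 5 for cytokinesis. Of the 32 symbols, 6 match no row, since Cdk1 stands in the table under its older symbol cdc2, aurB under ial and Mps1 under ald. The genes fzr, listed as rap, and Sas-6, written with a capital letter, lie outside the rule.

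Wing imaginal discs of Drosophila larvae in the third instar were used for RNA sequencing, dissected on day 4 to 5 after induction of the transgenes. In the tumorous genotype, ap > Yki+NelfAi, Gal4 under the apterous enhancer drove UAS Yki, the transcriptional coactivator of the Hippo pathway, together with UAS NelfA RNAi against a subunit of the negative elongation factor NELF, which holds RNA polymerase II in its paused state near promoters. The other genotypes were ap > Yki (UAS Yki alone, with mild overgrowth), ap > NelfAi (UAS NelfA RNAi alone) and the control ap > GFP. All 4 carried the same driver, a UAS GFP transgene and the temperature-sensitive repressor Gal80ts, and the control had an additional copy of UAS GFP. The driver is active in the dorsal compartment, so that each library, made from pooled whole discs, also held ventral cells without the transgenes, and fewer cells of a type could not be told apart from less RNA per cell. There were 3 libraries of ap > Yki+NelfAi, 3 of ap > Yki, 2 of ap > NelfAi (numbered 1 and 2) and 2 of ap > GFP (numbered 1 and 3). The authors collected the fewest discs for ap > Yki+NelfAi, more for ap > Yki, and the most for ap > NelfAi and ap > GFP. The number of discs could therefore not be told apart from genotype.

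Entry into mitosis is set by Cdk1, which is active only when bound to a mitotic cyclin and after a Cdc25 phosphatase has removed an inhibitory phosphate. In the wing disc the Cdc25 phosphatase string is known as the gene whose transcription times the passage from G2 to mitosis. Once the spindle has formed, the checkpoint proteins hold the anaphase-promoting complex in check until every kinetochore is attached, after which separase parts the sister chromatids and the central spindle places the cleavage furrow.

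The libraries held 6990931 to 13065642 reads on listed genes, and the deposited value of a gene is its reads divided by a factor of the library. Log2 fold changes of value + 0.5 come from a single limma model of the 10 libraries. It held the 7858 genes that reached a value of 1 in 2 or more libraries, and all 38 genes passed this filter. Genes called higher or lower had a Benjamini-Hochberg adjusted p below 0.05 and differed 1.5-fold or more. Some results are also given with CPM scaling, which sets all libraries to the same total, and in a length-corrected fit, in which the dependence on transcript length within a library was taken out. Nelf-A, the target of the RNAi, was at 41.2% to 44.8% of its ap > GFP mean in the tumorous libraries, against 29.8% in the library labelled ap > NelfAi 1 and 86.2% in the one labelled ap > NelfAi 2. The last of these was within the range of the ap > Yki libraries (73.6% to 103%), which carry no RNAi, so it went against its label. The 11 listed wing disc markers were present in every library, with a summed value of 346 in ap > NelfAi 1 and of 520 to 1029 in the others. In the tumorous discs 5 of the 11, en, eyg, nub, pdm2 and vg, were called lower than in ap > GFP (median log2 fold change of the 11 -1.19), and in ap > Yki 1, vg (median -0.30). Summed muscle markers were at 16.6 to 29.3 in tumorous libraries, 30.05 to 50.2 in ap > Yki, 652 and 135 in ap > NelfAi and 319 and 157 in ap > GFP. Of the 6 muscle markers 5 were called lower in the tumorous discs than in ap > GFP, as were 3 of 7 myoblast markers (Him, htl and twi) and all 4 glue genes of the salivary gland. Summed glue genes were at 0.33 to 2.64 in tumorous libraries, 1.997 to 6.42 in ap > Yki, 102 and 25.8 in ap > NelfAi and 37.5 and 171 in ap > GFP. Myoblast markers summed to 99.8 to 203 in tumorous libraries, 97.1 to 372 in ap > Yki, 71.6 and 349 in ap > NelfAi and 271 and 203 in ap > GFP. Fat body markers, none of them called by limma, summed to 12.6 to 45.8 in tumorous libraries, 14.95 to 166 in ap > Yki, 258 and 43.1 in ap > NelfAi and 30.8 and 36.5 in ap > GFP. The part of these cells in the results below was not tested.

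In the tumorous discs the mitotic genes had calls in both directions, as had the whole table. With ap > GFP as the control, stg and pav were called higher in the tumorous discs, and ncd and CycB3 lower. That is 2 of 38 higher, where 10.04% of all genes tested were called higher, and 2 of 38 lower, where 12.1% were. An unadjusted p under 0.05 (limma) was found for 12 of the 38 genes and for 2771 of all 7858 tested. The median log2 fold change of the 38 genes was 0.24, against 0.03 for all genes, and 25 of the 38 were positive (19 with CPM scaling). In ap > Yki against ap > GFP none of the 38 was called by limma in either direction (6 at an unadjusted p under 0.05), where 2.41% of all genes were called higher and 1.64% lower. By edgeR's quasi-likelihood test on recovered reads none was called there either (2.06% of all genes higher and 1.36% lower), whereas DESeq2 called ial and tum higher (4.66% of all genes higher and 3.13% lower).

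In ap > NelfAi against ap > GFP no member was called by limma, edgeR or DESeq2, and none had an unadjusted p under 0.05. Over all genes limma called 0.0255% higher and 0.0509% lower in that comparison. Without ap > NelfAi 2, which leaves ap > NelfAi 1 alone in that arm, Klp98A was called lower. Its value in that library was 12.2, against 23.9 and 27.1 in ap > GFP. After the length correction it was 22.7, against 21.5 and 26.0. The tumorous discs differed from ap > Yki by NelfA RNAi and, as given above, by a higher yki level. Against ap > Yki, 2 genes were called higher, ald and thr, and 2 lower, ncd and CycB3. That stood beside 7.20% and 10.2% of all genes. Adding Yki to NelfA depletion, ap > Yki+NelfAi against ap > NelfAi, gave stg as the 1 gene called higher and ncd as the 1 called lower, beside 8.36% and 9.11% of all genes. In all, 32 of the 38 genes were called in no comparison of this model. The tumorous libraries enter 3 of these comparisons and the ap > GFP libraries 3, so the counts are not independent of each other.

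**Figure D1:**
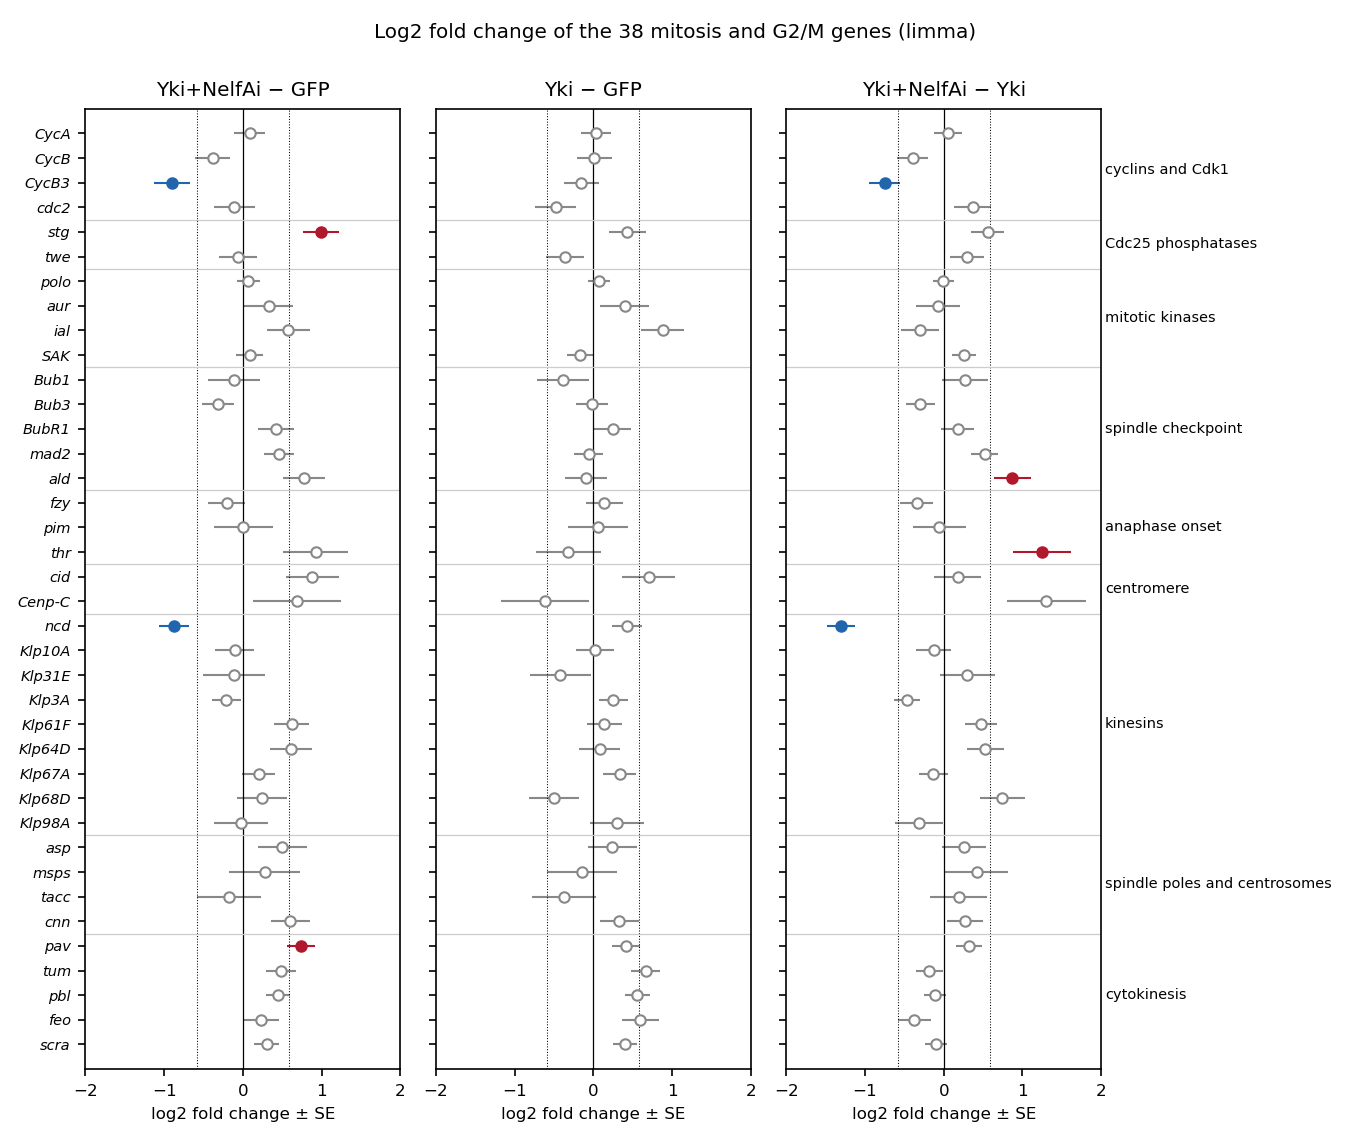
Log2 fold change with its standard error (limma, all 10 libraries) of the 38 genes, ordered by role, for ap > Yki+NelfAi minus ap > GFP, ap > Yki minus ap > GFP and ap > Yki+NelfAi minus ap > Yki. Filled points are called genes, red for higher and blue for lower, open points are not called, and dotted lines mark 1.5-fold. The filled points are stg, pav, CycB3 and ncd on the left, none in the middle, and ald, thr, CycB3 and ncd on the right.

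Of the genes for Cdk1, mitotic cyclins and Cdc25, stg was called higher and CycB3 lower in the tumorous discs against ap > GFP. The gene stg (string, FBgn0003525, dm6 chr3R:29251826-29255800, minus strand) encodes the Cdc25 phosphatase that activates Cdk1 in somatic cells. Its values were 158, 106 and 122 in the ap > Yki+NelfAi libraries, 77.8, 101 and 81.6 in ap > Yki, 50.8 and 65.3 in ap > NelfAi, and 72.4 and 56.0 in ap > GFP. All tumorous libraries lay above all others, the lowest of them only a little above the highest ap > Yki library. Its log2 fold change in tumorous discs was 0.99 ± 0.23 (SE) against ap > GFP (adjusted p = 0.0147, limma) and 1.13 ± 0.23 against ap > NelfAi (adjusted p = 0.00955, limma). Against ap > Yki it was 0.56 ± 0.21 (adjusted p = 0.0937, limma), which is not a call, and in ap > Yki against ap > GFP it was 0.43 ± 0.23 (adjusted p = 0.380, limma).

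The call of stg against ap > GFP was lost without ap > GFP 3 (log2 fold change 0.81, adjusted p = 0.150, limma) and with CPM scaling (0.74, adjusted p = 0.0876, limma). The call against ap > NelfAi was kept in all 10 fits that left out 1 library and lost in a fit of these 2 genotypes alone (adjusted p = 0.0587, limma). The other Cdc25 gene, twe (twine), is known from meiosis in the germ line. It was hardly detected, at 3.79, 5.41 and 3.64 in ap > Yki+NelfAi, 3.18, 4.23 and 2.74 in ap > Yki, 3.86 and 4.23 in ap > NelfAi, and 4.22 and 4.64 in ap > GFP (46 to 89 reads per library). Its groups overlapped, and its exons overlap those of EndoGI on the other strand, a gene listed at a mean of 74.8 in ap > Yki+NelfAi and 62.7 in ap > GFP. Since the sources used here do not say whether reads were counted by strand, reads of twe and of EndoGI could not be told apart. In all, 13 genes of the rule have exons that overlap those of a gene on the other strand. They are twe, aur, SAK, Bub3, mad2, ald, fzy, thr, ncd, Klp61F, Klp67A, msps and tacc. The same limit holds for each of them.

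Of the mitotic cyclins only CycB3 was called. CycB3 (FBgn0015625, chr3R:24867934-24870816, minus strand) encodes a B-type cyclin that is known to promote anaphase. Its values were 32.6, 31.7 and 37.2 in ap > Yki+NelfAi, 45.8, 58.7 and 69.4 in ap > Yki, 47.8 and 64.4 in ap > NelfAi, and 58.5 and 68.9 in ap > GFP. Every tumorous library was below every other library, while the remaining genotypes overlapped. Relative to ap > GFP its log2 fold change was -0.90 ± 0.22 (adjusted p = 0.0188, limma), and relative to ap > Yki it was -0.75 ± 0.20 (adjusted p = 0.0300, limma). Against ap > NelfAi it was -0.71 ± 0.22 (adjusted p = 0.0574, limma), not a call, although edgeR and DESeq2 called it (adjusted p = 0.0428 and 0.0129). In that comparison edgeR called 6.57% of all genes higher and 10.1% lower, and DESeq2 8.84% and 13.0%.

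These calls rested on few libraries. Against ap > GFP the call of CycB3 was lost without ap > Yki+NelfAi 1 or 2 (adjusted p = 0.0544 and 0.0648, limma) and without ap > GFP 1 or 3 (0.0729 and 0.159). Against ap > Yki it was kept in 3 of 10 such fits, those without ap > Yki 1 or without either ap > NelfAi library, with an adjusted p of up to 0.107 (without ap > Yki+NelfAi 2) in the other fits, and it was lost with CPM scaling (0.0625, limma).

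CycB, the cyclin that joins Cdk1 at the start of mitosis, pointed the same way with a smaller difference. It was at 139, 165 and 176 in ap > Yki+NelfAi, 231, 246 and 162 in ap > Yki, 223 and 180 in ap > NelfAi, and 197 and 219 in ap > GFP. The tumorous libraries were below both ap > GFP and both ap > NelfAi libraries, but ap > Yki 3 lay among them. With ap > GFP as reference, its log2 fold change was -0.38 ± 0.22 (95% interval -0.88 to 0.12, adjusted p = 0.257, limma).

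CycA, the cyclin of S phase and G2, had nearly the same level everywhere. Its values were 113, 111 and 122 in ap > Yki+NelfAi, 112, 119 and 102 in ap > Yki, 129 and 93.6 in ap > NelfAi, and 96.1 and 122 in ap > GFP. The groups overlapped, and the log2 fold change in tumorous discs against ap > GFP was 0.09 ± 0.19 (95% interval -0.35 to 0.52), which became -0.17 with CPM scaling. Cdk1 itself, listed as cdc2, was at 71.9, 74.0 and 83.2 in ap > Yki+NelfAi, 57.0, 61.2 and 58.5 in ap > Yki, 119 and 61.7 in ap > NelfAi, and 73.2 and 92.3 in ap > GFP. All ap > Yki libraries were below all others, yet the log2 fold change of -0.48 ± 0.26 against ap > GFP was not a call (95% interval -1.06 to 0.11, adjusted p = 0.387, limma). The tumorous libraries overlapped ap > GFP for cdc2, which was called lower in them than in ap > NelfAi only without ap > NelfAi 2. That fit leaves ap > NelfAi 1 alone in its arm, where cdc2 was at 119, and at 91.3 after the length correction.

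**Figure D2:**
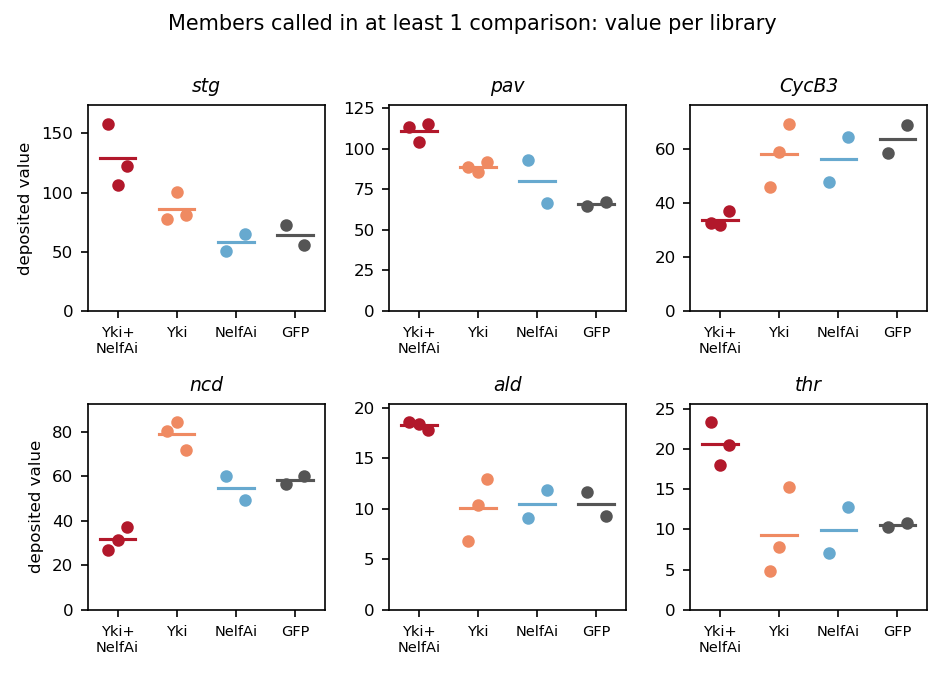
Deposited value (reads divided by a factor of the library, linear axis from 0) of the 6 genes called in at least 1 comparison, with 1 point per library and a line at the mean of each genotype. The tumorous libraries lie above all others for stg, pav, ald and thr and below all others for CycB3 and ncd.

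Among the mitotic kinases, none was called in the tumorous discs, and polo was the steadiest. polo, the kinase that acts at centrosomes, kinetochores and the central spindle, was at 270, 265 and 271 in ap > Yki+NelfAi, 265, 257 and 286 in ap > Yki, 245 and 234 in ap > NelfAi, and 260 and 252 in ap > GFP. Its log2 fold change in tumorous discs against ap > GFP was 0.07 ± 0.14 (95% interval -0.26 to 0.39), and it turned to -0.19 with CPM scaling. Aurora A, aur, which matures centrosomes, was at 20.4, 18.6 and 21.1 in ap > Yki+NelfAi, 23.5, 26.1 and 15.2 in ap > Yki, 31.1 and 15.7 in ap > NelfAi, and 17.3 and 14.5 in ap > GFP. The spread within ap > Yki and within ap > NelfAi exceeded the difference between genotypes. Exons of aur overlap those of CG12213 on the other strand, and reads of these genes could not be told apart. CG12213 averaged 35.0 in ap > Yki+NelfAi, 27.8 in ap > Yki, 39.8 in ap > NelfAi and 37.1 in ap > GFP.

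Aurora B, listed as ial, is the kinase of the chromosomal passenger complex, which corrects kinetochore attachments and works in cytokinesis. It was at 46.0, 57.8 and 60.0 in ap > Yki+NelfAi, 76.2, 69.3 and 57.4 in ap > Yki, 51.3 and 27.1 in ap > NelfAi, and 34.3 and 38.3 in ap > GFP. Both Yki genotypes lay above ap > GFP in every library, with ap > NelfAi 1 above both ap > GFP libraries and ap > NelfAi 2 below them. For ap > Yki against ap > GFP the log2 fold change was 0.88 ± 0.27 (95% interval 0.27 to 1.49, adjusted p = 0.116, limma), the largest among the 38 genes in that comparison. It was not called by limma over all 10 libraries, and was called by DESeq2 (adjusted p = 0.0427), in the length-corrected fit (0.00680, limma) and by limma without ap > NelfAi 1 or 2 (0.0191 and 0.0179). In the tumorous discs it was 0.58 ± 0.27 (adjusted p = 0.163, limma). SAK, the Plk4 kinase that starts centriole duplication, ranged from 22.5 to 30.02 over all libraries. Its exons overlap those of M6 on the other strand, so the limit given for twe holds here too. M6 averaged 50.1 in ap > Yki+NelfAi, 55.7 in ap > Yki, 50.8 in ap > NelfAi and 58.3 in ap > GFP.

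The spindle checkpoint had 1 gene called, ald (Mps1, FBgn0000063, chr3R:17671271-17673828, plus strand), the kinase at the head of the checkpoint. It was at 18.5, 18.4 and 17.8 in ap > Yki+NelfAi, 6.79, 10.4 and 13.0 in ap > Yki, 9.06 and 11.8 in ap > NelfAi, and 11.7 and 9.28 in ap > GFP. The tumorous libraries lay close together and above all the others, which overlapped. Log2 fold changes of ald were 0.87 ± 0.24 against ap > Yki (adjusted p = 0.0321, limma), 0.78 ± 0.26 against ap > GFP (0.0626, limma) and 0.79 ± 0.26 against ap > NelfAi (0.0718, limma), so that only the first was a call. Of 10 fits that each omitted a library, 3 kept that call, those without ap > Yki 3 or either ap > NelfAi library, and the highest adjusted p was 0.107, without ap > Yki 1. With CPM scaling it was lost too (0.0777, limma). Against ap > GFP, ald was called by DESeq2 (adjusted p = 0.0475), in the fit of only these genotypes (0.00740, limma) and without ap > Yki 1 or 3 or either ap > NelfAi library (0.0343 to 0.0426, limma). The exons of ald overlap those of alt on the other strand, which averaged 106 in ap > Yki+NelfAi, 105 in ap > Yki, 141 in ap > NelfAi and 160 in ap > GFP, so in the tumorous discs these means of the 2 genes differed from ap > GFP in opposite directions.

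The other checkpoint genes were not called by limma over all 10 libraries. mad2, which forms the inhibitor of the anaphase-promoting complex, was at 30.5, 31.4 and 31.6 in ap > Yki+NelfAi, 22.3, 21.3 and 21.3 in ap > Yki, 27.3 and 19.2 in ap > NelfAi, and 24.2 and 21.0 in ap > GFP. Again the tumorous libraries were above all others, with a log2 fold change of 0.52 ± 0.17 against ap > Yki (adjusted p = 0.0616, limma) and 0.46 ± 0.19 against ap > GFP (0.110, limma). Bub3, a partner of Bub1 and BubR1, was the most abundant of the 38 genes per kilobase of transcript. It was at 137, 141 and 145 in ap > Yki+NelfAi, 203, 172 and 148 in ap > Yki, 244 and 166 in ap > NelfAi, and 173 and 177 in ap > GFP. The tumorous libraries were below all others, but the lowest ap > Yki library came within a few units of them, and Bub3 was called in no comparison by limma over all 10 libraries. Against ap > NelfAi it was called lower by DESeq2, and by limma with CPM scaling or without ap > NelfAi 2, which leaves 1 library in that arm. BubR1 ranged from 39.1 to 77.1 and Bub1 from 7.22 to 16.5 over all libraries.

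At the onset of anaphase, thr (FBgn0003701, chr2R:17861273-17865963, minus strand), which encodes a subunit of the separase complex of the fly, was the 1 gene called. It was at 23.3, 18.02 and 20.5 in ap > Yki+NelfAi, 4.80, 7.79 and 15.3 in ap > Yki, 7.05 and 12.7 in ap > NelfAi, and 10.3 and 10.8 in ap > GFP. Every tumorous library was above every other library, and ap > Yki spread more than 3-fold. The difference was a log2 fold change of 1.25 ± 0.37 against ap > Yki (adjusted p = 0.0449, limma) and 0.93 ± 0.41 against ap > GFP (adjusted p = 0.142, limma).

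The call of thr against ap > Yki was lost by edgeR (adjusted p = 0.0713), with CPM scaling (0.0855, limma) and in 7 of 10 fits that left out 1 library, up to an adjusted p of 0.149 without ap > Yki 1. The 3 fits that kept it were those without ap > Yki 3 or either ap > NelfAi library. In the length-corrected fit thr was called higher against ap > Yki, against ap > GFP and against ap > NelfAi (adjusted p = 0.00386, 0.0202 and 0.0361, limma). Securin, the inhibitor of separase, is encoded by pim, whose values ran from 22.5 to 60.1 with overlap of all genotypes. fzy, the Cdc20 activator of the anaphase-promoting complex, was at 46.9, 46.0 and 52.3 in ap > Yki+NelfAi, 71.3, 65.7 and 49.6 in ap > Yki, 74.4 and 47.7 in ap > NelfAi, and 53.1 and 58.5 in ap > GFP. Its tumorous libraries were just below both ap > GFP libraries, with a log2 fold change of -0.20 ± 0.23 (95% interval -0.73 to 0.32). Exons of fzy overlap those of cact on the other strand, and reads of these genes could not be told apart. cact averaged 60.3 in ap > Yki+NelfAi, 71.3 in ap > Yki, 48.9 in ap > NelfAi and 64.3 in ap > GFP.

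Both centromere genes were higher in the tumorous mean, and neither was called over all 10 libraries. cid, the centromeric histone H3 variant, had only 33 to 110 reads per library, with values of 5.03, 3.56 and 5.04 in ap > Yki+NelfAi, 4.15, 5.22 and 2.74 in ap > Yki, 5.28 and 2.51 in ap > NelfAi, and 2.11 and 2.32 in ap > GFP. Both ap > GFP libraries were the lowest of the 10, and the log2 fold change in tumorous discs against them was 0.88 ± 0.34 (95% interval 0.12 to 1.64, adjusted p = 0.0926, limma). Cenp-C, which joins centromeric chromatin to the kinetochore, was at 34.6, 33.0 and 33.6 in ap > Yki+NelfAi, 8.09, 12.7 and 23.2 in ap > Yki, 6.38 and 27.7 in ap > NelfAi, and 25.1 and 17.2 in ap > GFP. The tumorous libraries were tight and above all others, whereas ap > NelfAi differed more than 4-fold between its libraries. Against ap > Yki the log2 fold change was 1.30 ± 0.50 (95% interval 0.17 to 2.43, adjusted p = 0.105, limma), and in the length-corrected fit it was called (1.27, adjusted p = 0.00897, limma).

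Of the 9 kinesin genes, ncd was called, with a lower level in the tumorous discs than in each other genotype. The gene ncd (non-claret disjunctional, FBgn0002924, chr3R:29804290-29807127, minus strand) encodes a minus-end-directed kinesin-14 that gathers microtubules at spindle poles. Its values were 26.8, 31.2 and 37.4 in ap > Yki+NelfAi, 80.5, 84.2 and 71.6 in ap > Yki, 60.2 and 49.5 in ap > NelfAi, and 56.4 and 60.2 in ap > GFP. For ncd the tumorous libraries were the lowest and the ap > Yki libraries the highest, with the libraries of both other genotypes between them and no overlap. Its log2 fold change in tumorous discs was -1.31 ± 0.17 against ap > Yki (adjusted p = 0.00124, limma), -0.88 ± 0.19 against ap > GFP (0.0110, limma) and -0.78 ± 0.19 against ap > NelfAi (0.0214, limma). For ap > Yki against ap > GFP it was 0.43 ± 0.19 (adjusted p = 0.286, limma), which is not a call.

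The call of ncd against ap > Yki was kept in every alternative run, the 10 fits that left out 1 library included, with adjusted p-values up to 0.00834. Against ap > GFP it was lost without ap > GFP 1 or 3 (adjusted p = 0.0673 and 0.0991, limma). Against ap > NelfAi it was lost without ap > Yki+NelfAi 1 or 2 or ap > NelfAi 1 (0.0726, 0.0691 and 0.0688, limma) and in a fit of these genotypes alone (0.114). The difference between the effect of NelfA depletion with and without Yki, the interaction of both transgenes, was -1.21 ± 0.27 for ncd (adjusted p = 0.0734, limma). It was not a call by limma or by edgeR, and was one by DESeq2 (-1.26, adjusted p = 0.00140) and in the length-corrected fit (-1.27, adjusted p = 0.0225, limma). The interaction also holds the difference in yki level between the tumorous and ap > Yki discs. Exons of ncd overlap those of CG7789 and ca on the other strand, genes with means of 10.52 and 22.5 in ap > Yki+NelfAi, 10.1 and 24.7 in ap > Yki, 11.5 and 20.3 in ap > NelfAi, and 10.05 and 21.1 in ap > GFP.

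None of the other 8 kinesin genes was called in the model of all 10 libraries. Klp61F, the kinesin-5 that pushes spindle poles apart, was at 50.3, 41.3 and 48.1 in ap > Yki+NelfAi, 28.9, 28.0 and 45.1 in ap > Yki, 30.7 and 29.6 in ap > NelfAi, and 29.5 and 30.5 in ap > GFP. All but 1 of the non-tumorous libraries were between 28.0 and 30.7, and ap > Yki 3 lay among the tumorous ones. In tumorous discs its log2 fold change relative to ap > GFP was 0.62 ± 0.23 (adjusted p = 0.0786, limma), a call without ap > Yki 3 (0.0256, limma) and in the length-corrected fit (0.0472, limma). After that correction it was at 44.2, 42.5 and 46.7 in ap > Yki+NelfAi. ap > NelfAi 1 then came close to them at 42.4, with 39.2 in ap > Yki 3 and 25.4 to 30.9 in the others. Klp3A, a kinesin-4 of the central spindle, was at 27.7, 30.1 and 37.5 in ap > Yki+NelfAi, 40.97, 43.7 and 46.4 in ap > Yki, 32.0 and 38.7 in ap > NelfAi, and 38.2 and 34.8 in ap > GFP. It was below every ap > Yki library in the tumorous discs, with a log2 fold change of -0.46 ± 0.17 (adjusted p = 0.0866, limma).

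Several of the motor genes had low counts. Klp64D and Klp68D, which encode motor subunits of kinesin-II, a carrier in axons and cilia, had 44 to 97 and 25 to 92 reads per library. Klp64D was at 4.601, 5.21 and 4.04 in ap > Yki+NelfAi, 3.23, 3.80 and 2.23 in ap > Yki, 5.12 and 3.31 in ap > NelfAi, and 2.81 and 2.86 in ap > GFP. Klp68D was at 1.90, 2.95 and 4.59 in ap > Yki+NelfAi, 1.35, 2.04 and 1.39 in ap > Yki, 3.44 and 2.94 in ap > NelfAi, and 2.49 and 2.37 in ap > GFP. Neither was called over all 10 libraries, and for Klp68D the tumorous libraries spanned more than 2-fold. Klp68D was called higher in the tumorous discs than in ap > Yki without ap > Yki+NelfAi 1, and Klp64D higher than in ap > GFP in a fit of only those genotypes. Klp31E had 19 to 100 reads and values of 3.37, 4.04 and 3.49 in ap > Yki+NelfAi, 2.21, 2.18 and 4.64 in ap > Yki, 1.59 and 4.29 in ap > NelfAi, and 4.48 and 3.51 in ap > GFP. The tumorous libraries were inside the range of the others for Klp31E. Over all libraries Klp10A ran from 27.1 to 46.6, Klp67A from 12.1 to 18.1 and Klp98A from 12.2 to 36.5, and none of these was called over all 10 libraries. Without ap > NelfAi 2, Klp98A was called lower in ap > NelfAi than in ap > GFP and higher in the tumorous discs than in ap > NelfAi. That fit holds ap > NelfAi 1 alone in its arm, where the length correction took Klp98A from 12.2 to 22.7.

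At the spindle poles 4 long genes, asp, msps, tacc and cnn, varied widely between libraries of 1 genotype, and none was called over all 10 libraries. tacc, which loads the microtubule polymerase Msps onto centrosomes, was at 71.0, 67.9 and 74.7 in ap > Yki+NelfAi, 47.1, 47.9 and 107 in ap > Yki, 37.0 and 83.7 in ap > NelfAi, and 78.4 and 82.9 in ap > GFP. ap > Yki 3 stood far above both other ap > Yki libraries, and ap > NelfAi 2 far above ap > NelfAi 1. msps ran from 52.3 to 166 and asp, which focuses microtubules at spindle poles, from 26.3 to 54.4, with the lowest value in ap > NelfAi 1 and the highest in ap > Yki 3 for both. cnn, the scaffold of the pericentriolar material, had a log2 fold change of 0.60 ± 0.25 in tumorous discs against ap > GFP (95% interval 0.04 to 1.16, adjusted p = 0.116, limma).

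The 5 cytokinesis genes of the rule shared a direction against the control, mostly without calls. All 5 had a positive log2 fold change against ap > GFP in ap > Yki+NelfAi (0.23 to 0.74, median 0.45), in ap > Yki (0.40 to 0.67, median 0.56) and in ap > NelfAi (0.13 to 0.35, median 0.25). With CPM scaling 4 of the 5 were positive in the tumorous discs. These comparisons share the ap > GFP libraries, and of the 5 genes only pav was called, in the tumorous discs. Against ap > Yki, 1 of the 5, pav, was positive in the tumorous discs. The direction was not shared by 7 further cytokinesis genes outside the rule. Against ap > GFP, 4 of these 7 were positive in ap > Yki+NelfAi (median 0.03), 4 in ap > Yki (median 0.008) and 2 in ap > NelfAi (median -0.23).

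pav (pavarotti, FBgn0011692, chr3L:4242734-4246233, plus strand) encodes the kinesin-6 of the centralspindlin complex. It was at 113, 104 and 115.4 in ap > Yki+NelfAi, 88.5, 85.4 and 91.7 in ap > Yki, 92.9 and 66.6 in ap > NelfAi, and 64.6 and 67.4 in ap > GFP. All tumorous libraries were above all others, and the ap > Yki libraries above both ap > GFP libraries. Against ap > GFP the log2 fold change was 0.74 ± 0.18 in ap > Yki+NelfAi (adjusted p = 0.0169, limma) and 0.42 ± 0.18 in ap > Yki (adjusted p = 0.259, limma). The call was lost with CPM scaling (0.49, adjusted p = 0.0753, limma), without ap > Yki+NelfAi 1 or 3 (0.0502 and 0.0576) and without ap > GFP 1 or 3 (0.121 and 0.102).

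tum (tumbleweed), the RacGAP partner of pav in centralspindlin, was at 131, 101 and 114 in ap > Yki+NelfAi, 146, 133 and 114 in ap > Yki, 114 and 95.7 in ap > NelfAi, and 83.2 and 80.7 in ap > GFP. Both ap > GFP libraries were below all 8 others. Against ap > GFP, ap > Yki had a log2 fold change of tum of 0.67 ± 0.19 (adjusted p = 0.0886, limma), a call by DESeq2 (0.0155), in the length-corrected fit (0.0284, limma) and without ap > NelfAi 1 or 2 (0.0426 and 0.0404, limma). pbl (pebble), which is needed for the contractile ring, had a log2 fold change of 0.56 ± 0.15 in ap > Yki (adjusted p = 0.0828, limma) and of 0.45 ± 0.15 in ap > Yki+NelfAi (0.0648, limma), both under 1.5-fold. feo (fascetto), the PRC1 protein that bundles the central spindle, was at 45.2, 44.3 and 55.1 in ap > Yki+NelfAi, 62.5, 68.8 and 56.0 in ap > Yki, 64.9 and 40.6 in ap > NelfAi, and 44.8 and 37.3 in ap > GFP. All ap > Yki libraries were above all tumorous ones, and the log2 fold change of feo in ap > Yki against ap > GFP was 0.60 ± 0.23 (adjusted p = 0.209, limma). scra, the anillin of the fly, was at 67.1 to 93.8 over all libraries, with 0.40 ± 0.16 in ap > Yki (adjusted p = 0.214, limma).

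**Figure D3:**
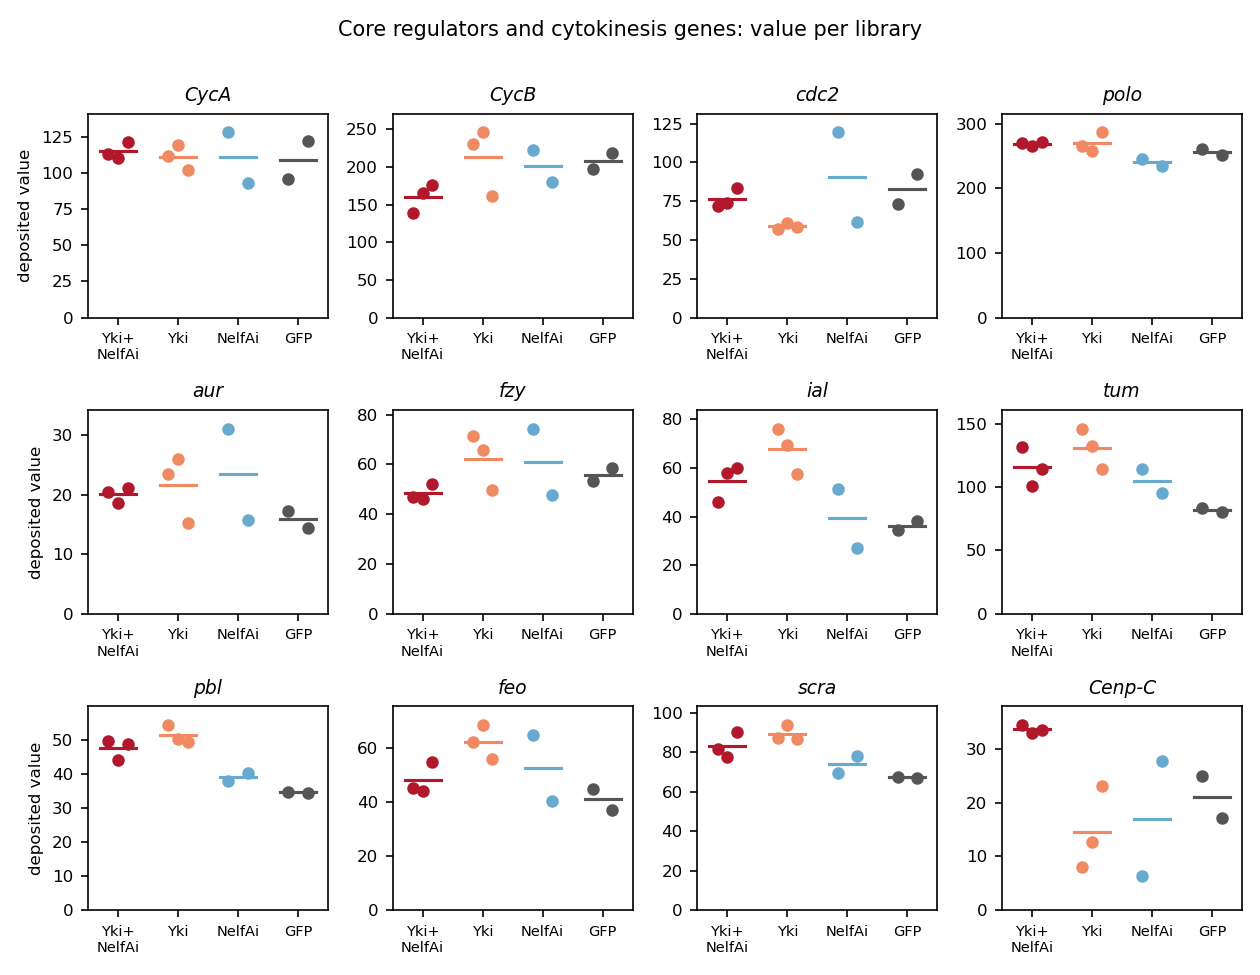
Deposited value (linear axis from 0) of 12 further genes, with 1 point per library and a line at the mean of each genotype. The ap > Yki+NelfAi libraries overlap ap > GFP for CycA and cdc2, both Yki genotypes lie above ap > GFP for ial, tum, pbl and scra, and Cenp-C spreads widely in ap > Yki and ap > NelfAi.

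Counted by libraries that do not overlap, 6 of the 38 genes were higher in all 3 tumorous libraries than in the 7 others, stg, mad2, ald, thr, Cenp-C and pav, and 3 were lower, CycB3, Bub3 and ncd. Over all genes tested 11.4% were higher and 12.0% lower in this sense, so the share of the 38 genes, 15.8% and 7.89%, was near that background. Against ap > GFP alone, 19 of the 38 genes were higher without overlap in ap > Yki+NelfAi and 6 lower, beside 33.3% and 31.0% of all genes. The counts for ap > Yki against ap > GFP were 12 and 3, beside 21.8% and 19.3%, and for ap > NelfAi against ap > GFP 6 and 1, beside 9.99% and 12.8%. Tumorous libraries were clear of all ap > Yki libraries for 9 higher and 6 lower genes, beside 21.8% and 21.6%, and of both ap > NelfAi libraries for 11 and 4, beside 21.7% and 20.6%.

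How a gene deviated in a library went with the length of its transcript, in these genes as in the whole table. The longest transcripts of the 38 genes run from 0.818 to 7.551 kb. Across the 38 genes, which are not independent replicates, the Spearman correlation of the log2 deviation from the gene mean with this length was -0.78 in ap > NelfAi 1, 0.61 in ap > NelfAi 2 and 0.73 in ap > Yki 3. It was -0.41 and -0.42 in ap > Yki 1 and 2, 0.39, -0.01 and 0.16 in the tumorous libraries, and 0.13 and 0.09 in the ap > GFP libraries. In ap > NelfAi 1 the short genes stood high and the long ones low, and in ap > NelfAi 2 and ap > Yki 3 the reverse held. Over all genes with a known length the 3 values were -0.66, 0.49 and 0.47.

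**Figure D4:**
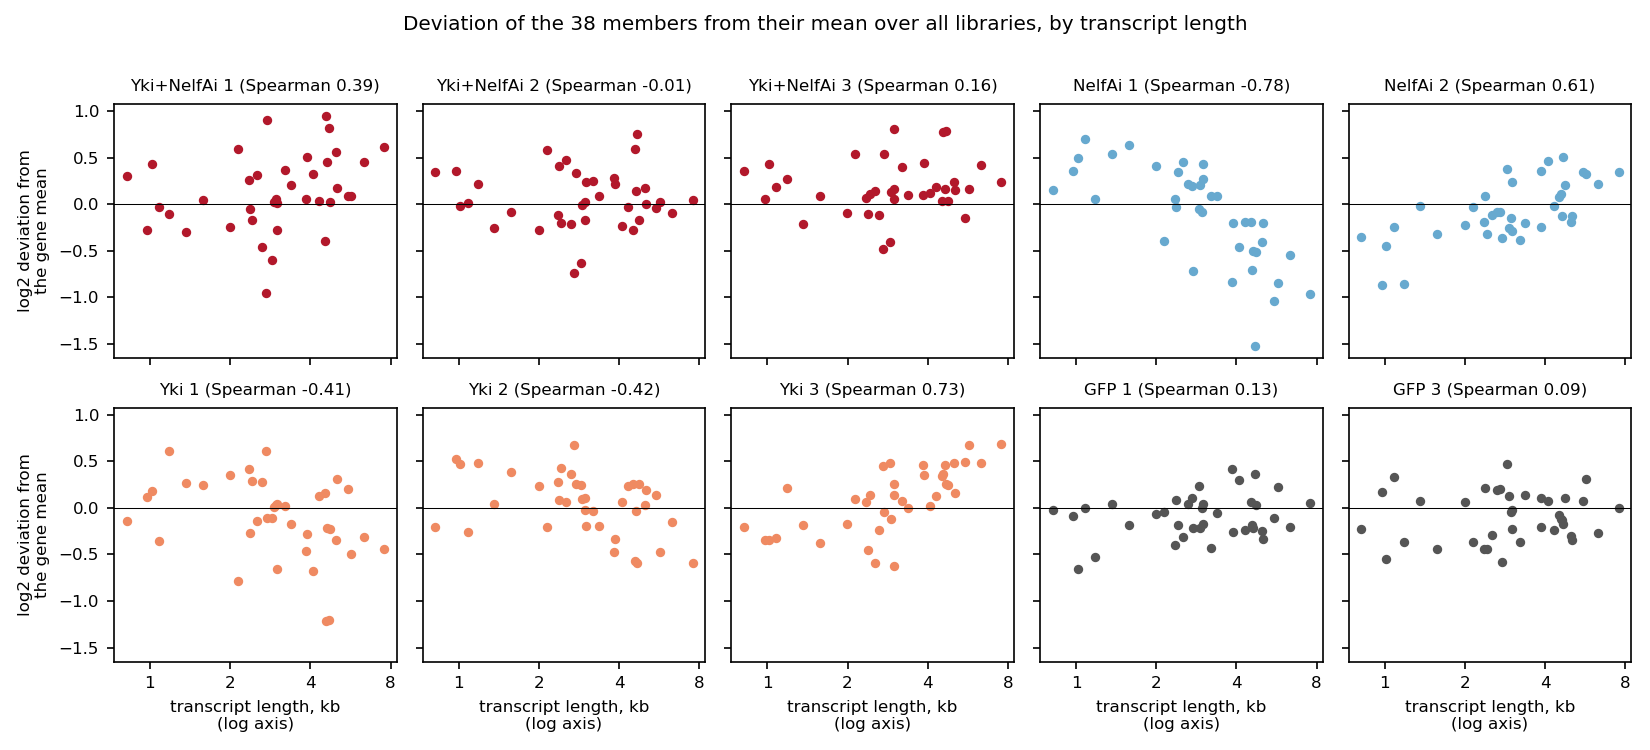
Log2 deviation of each of the 38 genes from its mean over the 10 libraries against the length of its longest transcript (log axis), 1 panel per library, with the Spearman correlation over the 38 genes. The points fall with length in ap > NelfAi 1 (-0.78) and climb with it in ap > NelfAi 2 (0.61) and ap > Yki 3 (0.73), while the ap > GFP panels show little slope.

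The model takes 1 estimate of spread for each gene over all genotypes, so spread within any genotype entered the error of every comparison. The length correction drew the ap > NelfAi libraries together for some genes, as for Cenp-C, from 6.38 and 27.7 to 10.4 and 21.9. It drew them apart for others, as for Klp61F, from 30.7 and 29.6 to 42.4 and 25.4. The part of transcript length in the call counts below was not tested. In a fit of only the ap > Yki+NelfAi and ap > GFP libraries, 9 of the 38 genes were called higher, stg, ald, thr, cid, Cenp-C, Klp61F, Klp64D, cnn and pav, and CycB3 and ncd lower, beside 16.6% of all genes higher and 17.1% lower. In the length-corrected fit of that comparison 5 were called higher, stg, thr, cid, Klp61F and pav, and again CycB3 and ncd lower, beside 13.7% and 16.8% of all genes. The length-corrected fit called 5.61% of all genes higher and 4.17% lower in ap > Yki against ap > GFP, where it called ial and tum higher. In the tumorous discs it called 3 of the 38 genes higher and 2 lower against ap > Yki, beside 11.6% and 14.4% of all genes, and 3 and 2 against ap > NelfAi, beside 12.1% and 14.1%. For the interaction it called 0 higher and 1 lower, beside 1.73% and 3.60%. For the interaction none of the 38 genes was called by limma (4 at an unadjusted p under 0.05, beside calls for 0.318% of all genes higher and 0.942% lower) or by edgeR, and DESeq2 called ncd lower (1.27% of all genes higher and 4.24% lower). Without ap > NelfAi 2, the library whose Nelf-A level went against its label, the arm held ap > NelfAi 1 alone. That library had a length correlation of -0.78 over the 38 genes. The interaction was then 2.93 for Cenp-C, -1.35 for ncd and -1.03 for feo. After the length correction Cenp-C in ap > NelfAi 1 was at 10.4, against 6.38 before it.

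The levels of these genes differed far more from each other than between genotypes. Per kilobase of longest transcript, the mean value in ap > GFP ran from 128 for Bub3, 85.9 for polo, 78.9 for CycB and 76.5 for cdc2 down to 1.86 for twe, 1.12 for Klp64D, 1.04 for Klp31E and 0.812 for Klp68D. In ap > Yki+NelfAi the same 4 genes led, with 103 for Bub3, 90.2 for polo, 70.6 for cdc2 and 60.7 for CycB. stg stood at 46.9 per kilobase in ap > Yki+NelfAi and at 23.4 in ap > GFP, and ncd at 11.7 and 21.4. Together the 38 genes took 0.308% to 0.370% of the reads in tumorous libraries, 0.324% to 0.390% in ap > Yki, 0.359% and 0.394% in ap > NelfAi, and 0.370% and 0.388% in ap > GFP, so that the tumorous and control shares met at 0.370% and the others overlapped.

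Among 85 further mitotic genes outside the rule, the tumorous discs had 6 called higher and 4 called lower relative to ap > GFP, with a median log2 fold change of 0.26. Both counts are below the share of all genes called in these directions (10.04% and 12.1%). Higher were lok, the checkpoint kinase Chk2 (1.20, adjusted p = 0.00131, limma), dia, the formin of the contractile ring (1.38, 0.00161), the augmin subunit dgt6 (0.93, 0.00559), Sas-4, ana2 and Cap-D3. Lower were grp, the checkpoint kinase Chk1 (-1.13, adjusted p = 0.00414, limma), the kinetochore gene Nnf1b, and the general tubulin genes betaTub56D (-1.03, 0.00464) and alphaTub84B (-1.04, 0.00928).

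The 2 checkpoint kinases went opposite ways in the tumorous discs. lok was at 63.7, 64.4 and 60.4 in ap > Yki+NelfAi, 51.0, 48.1 and 46.8 in ap > Yki, 37.3 and 28.4 in ap > NelfAi, and 28.9 and 25.1 in ap > GFP. grp was at 36.2, 33.7 and 47.9 in ap > Yki+NelfAi, 73.2, 61.6 and 59.7 in ap > Yki, 70.5 and 87.1 in ap > NelfAi, and 85.0 and 86.1 in ap > GFP. Neither gene's tumorous libraries overlapped any other library. The calls of lok, dia and grp against ap > GFP were kept in every alternative run. Those of Sas-4, ana2, Cap-D3 and alphaTub84B were lost without either ap > GFP library (adjusted p of 0.117, 0.0611, 0.196 and 0.0817 without ap > GFP 1 and of 0.114, 0.308, 0.216 and 0.0627 without ap > GFP 3, limma). Sas-4 was also lost without ap > Yki+NelfAi 1 (0.0601), ana2 without any tumorous library or ap > Yki 2 (0.0623 to 0.0959), and Cap-D3 without any tumorous or ap > Yki library (0.0609 to 0.125). With CPM scaling the calls of Sas-4, ana2 and Cap-D3 were lost (0.103, 0.168 and 0.218, limma), that of Cap-D3 also with RLE factors (0.0580), a pseudocount of 0.1 (0.0502) or no filter (0.0503), and that of ana2 in the length-corrected fit (0.0609). betaTub56D was lost without ap > GFP 1 (0.0541), and dgt6 and Nnf1b without ap > GFP 3 (0.0622 and 0.05002).

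For ap > Yki against ap > GFP, 3 of the 85 genes were called higher, lok, dgt6 and mars, and none lower, beside 2.41% and 1.64% of all genes. With CPM scaling all 3 calls were lost (adjusted p = 0.0620, 0.142 and 0.181, limma), and that of mars also by edgeR (0.0511) and that of dgt6 in a fit of only these genotypes (0.0531, limma). Each of these calls was lost in the fits without any 1 of the 8 libraries outside ap > NelfAi. Of the 2 genes left out by the spelling of the rule, rap (fzr) was at 12.8 to 13.8 in ap > Yki+NelfAi and 9.43 to 15.9 in the others. Sas-6 was at 4.22, 4.59 and 4.44 in ap > Yki+NelfAi, above the 2.43 to 3.62 of the other libraries.

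Among genes of G1 and S phase, calls in the tumorous discs went in both directions. Of 21 tested, RnrL, the large subunit of ribonucleotide reductase, was called higher in the tumorous discs than in ap > GFP (0.74, adjusted p = 0.0110, limma), and cdc2c, the fly's Cdk2, was called lower (-0.79, adjusted p = 0.0217, limma), so that 1 of 21 was called in each direction, beside 10.04% and 12.1% of all genes. Both calls were lost without ap > GFP 1 or ap > GFP 3 (adjusted p of 0.107 and 0.0641 for RnrL, 0.0559 and 0.207 for cdc2c), and that of cdc2c also without ap > Yki+NelfAi 1 or 2 (0.0699 and 0.0741). RnrL was lost with CPM scaling as well (0.0564, limma). In ap > Yki cdc2c was lower as well (-1.11, adjusted p = 0.0182, limma), a call lost without ap > Yki 1 (0.0768), ap > GFP 1 (0.0796) or ap > GFP 3 (0.217). Of 11 genes of the Myb-MuvB, E2F and Dref group, known to regulate transcription of mitotic genes, limma, edgeR and DESeq2 called none in the tumorous discs against ap > GFP, and none had an unadjusted p under 0.05 there. Of 5 germ line markers only nos was listed, and it was higher in the tumorous libraries (3.34 to 7.49) than in the others (0.162 to 1.24), a pattern not seen for twe.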

How the data were processed

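The authors aligned the reads with HISAT 2.0, per the labels to the build dm6, and deposited 1 table whose signal is the reads of a gene divided by a factor of its library. Every deposited value was a whole multiple of that of 1 read (100% within 0.001 read), so whole reads were recovered. A further 28.4% to 36.5% of reads, assigned to no gene, were left out. The authors' comparison tables, with fold changes and p-values, were not used.

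The test was limma (3.58.1) with a variance trend on log2(value + 0.5), for 10 libraries in 1 model, a scale on which low values show too small a change. edgeR (4.0.16) and DESeq2 (1.42.0) on recovered reads were alternatives, beside TMM, RLE and reads-per-million scaling, pseudocounts of 0.1 and 1, no filter and a filter of 5, no minimum fold, leaving out the genotypes not under comparison, a replicate block, removal of each library's length trend (lowess, span 0.3), and omission of each library in turn. The scripts were tested on simulated data, with 200 of 7858 genes changed, 2-fold and 3-fold in equal number. Of these limma called 44 for ap > Yki+NelfAi, 23 for ap > Yki and 9 for ap > NelfAi, each against ap > GFP. For ap > Yki+NelfAi it called 52 against ap > Yki and 29 against ap > NelfAi. Only 5, 2, 0, 4 and 1 of those called were changed 2-fold, in the same order. A gene that was not called may therefore still have changed. Members and lists were chosen with earlier results of these data known. Values per library were given for the core regulators, all called members, and the 3 largest rises and falls in each comparison. Values of mad2 and Klp61F, and of genes outside the rule, were added after they were seen. Gene coordinates, exon overlaps and transcript lengths are from Ensembl release 115. The authors state 3 biological replicates per genotype, while ap > NelfAi and ap > GFP had 2 libraries each here. Labels only number the replicates, and p-values measure the spread between these libraries. The chi-square per degree of freedom between replicates was 19.8 to 136, so none was counted as a copy. Promoter sequences were not used here.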

Additional observations from a re-analysis of the deposited data

How the results depend on the processing

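CPM scaling moved the median log2 fold change of all genes from 0.03 to -0.21 in ap > Yki+NelfAi against ap > GFP and from -0.01 to -0.21 in ap > Yki against ap > GFP. Positive genes among the 38 in the tumorous discs then fell to 19, against 25, and CycA and polo were among the 6 that changed sign (-0.17 and -0.19). Without 1 library CycA ran from -0.0857 (without ap > GFP 1) to 0.262 and cdc2 from -0.275 to 0.0582 (without ap > GFP 3). Pseudocounts and filters changed no count of genes called among the 38. The ap > GFP and ap > NelfAi arms had 2 libraries each, so without 1 of them the other was assumed to vary like the other genotypes. Depth limits Klp31E, Klp68D and cid, which had as few as 19, 25 and 33 reads in a library.

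Of the 38 genes, those called higher in ap > Yki+NelfAi against ap > GFP (2) became 0 with CPM scaling, 9 in the fit of these genotypes, 5 with the length trend removed, and without 1 library from 0 (ap > GFP 3) to 4 (ap > Yki 3 or either ap > NelfAi library). Those called lower (2) were 0 without either ap > GFP library and at most 2. In ap > Yki against ap > GFP, genes called higher (0) became 2 by DESeq2, 1 in the fit of these genotypes, 2 with the length trend removed, and from 0 to 2 without 1 library (either ap > NelfAi library). Klp98A, not called in ap > NelfAi against ap > GFP over all 10 libraries, was called lower without ap > NelfAi 2, with ap > NelfAi 1 alone in that arm. Set against ap > Yki, the tumorous genes called higher (2) became 1 by edgeR, 0 with CPM scaling, and from 0 (ap > Yki+NelfAi 2 or 3, ap > Yki 1 or 2, or either ap > GFP library) to 3 (ap > Yki 3 or either ap > NelfAi library). Those called lower (2) became 1 with CPM scaling and 1 to 2 without 1 library, with 2 only without ap > Yki 1 or either ap > NelfAi library. Set against ap > NelfAi, those called higher (1) became 0 in the fit of these genotypes, 3 with the length trend removed, and 1 to 5 (without ap > NelfAi 2) without 1 library. Those called lower there (1) became 2 by edgeR, 3 by DESeq2, 2 with TMM, 2 with RLE, 3 with CPM scaling, 0 in the fit of these genotypes, 2 with the length trend removed, and from 0 (ap > Yki+NelfAi 1 or 2) to 3 (ap > NelfAi 2). For the interaction, genes called lower (0) became 1 by DESeq2 and 1 with the length trend removed. Among the fits without 1 library, its calls changed only without ap > NelfAi 2, which left 1 library in that arm. The cause of these differences was not tested. The share of all genes called is given above for only some of these fits. It is not given for CPM, TMM or RLE scaling or for fits without 1 library, so those counts are no result about the 38 genes.

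Replicate numbers did not pair the libraries: over 12 pairs with the same number the deviations correlated between -0.43 and 0.59, 4 of them above 0.1, and 2 of 10 libraries correlated best with their own number. With the replicate number as a block, genes called higher and lower were 1 and 1 in ap > Yki+NelfAi against ap > GFP, 0 and 2 against ap > Yki, and 1 and 0 against ap > NelfAi, beside 5.59% and 8.30%, 3.91% and 7.75%, and 5.15% and 6.08% of all genes. The calls absent with the block were stg and ncd against ap > GFP (adjusted p = 0.0572 and 0.0522, limma), ald and thr against ap > Yki (0.0706 and 0.0668) and ncd against ap > NelfAi (0.0720). Outside the 38 genes they were Sas-4, ana2, Cap-D3 and cdc2c in the tumorous discs (0.0727, 0.108, 0.126 and 0.0523) and lok, dgt6, mars and cdc2c in ap > Yki (0.1003, 0.163, 0.145 and 0.0598), each against ap > GFP. With the block and the length trend removed they were 4 and 2, 3 and 2, and 2 and 2, beside 11.7% and 14.9%, 10.6% and 13.5%, and 10.3% and 12.0%, and in ap > Yki against ap > GFP 2 and 0, beside 3.49% and 2.89%.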
